A study of Mus musculus with 10 samples.

Results

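Genes of hepatic cytochrome P450 metabolism were followed in 10 mouse livers. The 10 genes were the Cyp3a genes Cyp3a11, Cyp3a13, Cyp3a16, Cyp3a25, Cyp3a41a and Cyp3a44, the Cyp1a genes Cyp1a1 and Cyp1a2, the reductase gene Por, and Alas1, which controls haem supply. A probe was taken as a member's when the RefSeq accession the array gives it belongs to that gene, which found 12 probes for the 10 genes among 56605 non-control probes. Of these, 11 probes of 9 genes were measured well above background and entered tests that covered 15088 genes, and the probe of Cyp3a44 did not.

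The livers came from adult male C57BL/6J wild-type (+/+) mice bought at 7 weeks of age and given 1 week on a standard diet of 3 kcal per g. All then ate a 60% high-fat diet of 5.5 kcal per g for 4 months, controls included, so neither group stayed on the standard diet. The control mice (n = 5) got no ethanol, and the ethanol mice (n = 5) drank it in their water for the last 3 months. Their daily intake was 5 g per kg during week 1 and 10 g per kg from then on. The experiment held 20 mice, 10 per group, of which 5 per group were drawn at random for 1-colour arrays of whole liver RNA, 1 mouse to an array, so n counts animals. The comparison asks what drinking ethanol did to liver genes under a fat-rich diet. The hour of death and whether the mice were fasted are not given in the sources used here.

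Microsomal P450s are haem enzymes of the endoplasmic reticulum that oxidise drugs, steroids and bile acids. Por, the NADPH-cytochrome P450 reductase, hands them electrons, and Alas1, aminolevulinate synthase, catalyses the rate-limiting step in making the haem they need. CYP3A enzymes are induced through the pregnane X receptor (PXR, gene Nr1i2) and the constitutive androstane receptor (CAR, gene Nr1i3), and CYP1A enzymes through the aryl hydrocarbon receptor (Ahr). In mouse liver Cyp3a11 is the main adult form in males, while Cyp3a16, Cyp3a41a and Cyp3a44 are known as genes of females or of young animals.

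The share of spots well above background ran from 55.5% to 59.1% over the arrays and no spot was saturated. Precision is set by having 5 arrays a group. Of the 10 hepatocyte markers checked, 9 were tested and all 9 were well above background on all 10 arrays, with a summed signal (log2) of 12.16 to 12.60 in control and 12.34 to 12.45 in ethanol livers. Of the hepatic stellate cell markers 9 of 10 were lower with ethanol, where 56.4% of all genes were higher. An unadjusted p under 0.05 in limma was reached by 7, where 13.3% of all genes reached it, and 0 passed the threshold. In 3 of the 10 the groups did not overlap, where 3.05% of all genes had no overlap. The summed signal (log2) of these markers was 6.46 to 6.88 in control and 5.75 to 6.45 in ethanol livers. No marker of bile duct cells, macrophages, endothelial cells, lymphocytes, adipocytes, red blood cells, muscle or gut passed either, and for muscle 1 of 5 and for gut 2 of 6 markers were bright enough to be tested. The part of these cells in the values below was not tested, and in whole liver fewer cells of a type and less RNA per cell cannot be told apart. The arrays lay on 3 slides: slide 1 held control mice 4 and 5 and ethanol mouse 4, slide 2 control mice 1 and 3, and slide 3 control mouse 2 and ethanol mice 1, 2, 3 and 5. Signals are given on the log2 scale after division by the 75th percentile of their array, in the order of mice 1 to 5 of a group, and can be compared between mice but not between probes.

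No P450, reductase or synthase gene of the set passed the test between the groups, and the mice of 1 group spread over much of the range of the other. With limma and Benjamini-Hochberg adjustment over 15088 genes, 0 of the 9 tested members passed an adjusted p of 0.05, where 0.0199% of all genes did (0.0133% higher and 0.00663% lower with ethanol), and 0 had an unadjusted p under 0.05, where 13.3% of all genes did. The ethanol and control values overlapped for all 9, while 3.05% of all genes had no overlap. Of the 9, 4 were higher and 5 lower with ethanol, and their median log2 fold change was -0.05, against 0.03 over all genes, of which 56.4% were higher. Tested probe by probe, 0 of their 11 probes passed, where 0.00964% of 31106 probes did. The smallest p among the members was 0.0861, for Cyp3a25.

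**Figure D1:**
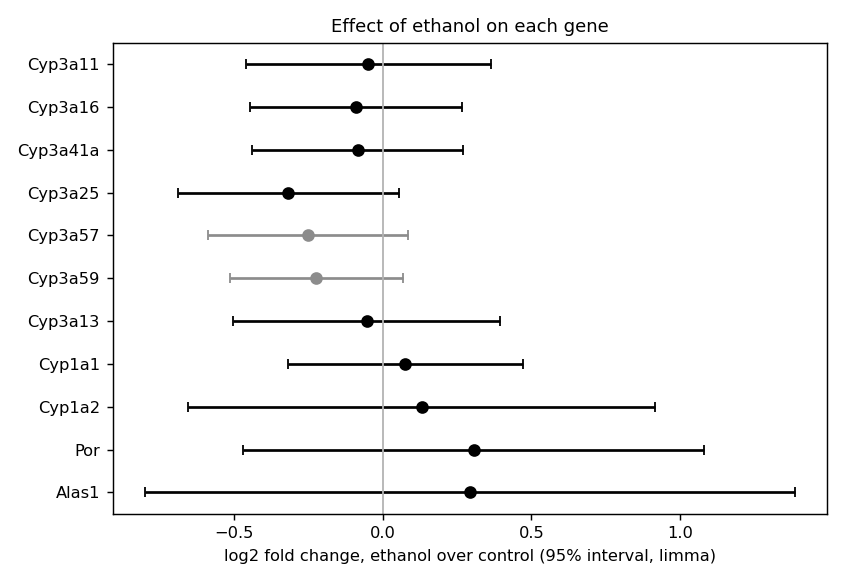
Log2 fold change of ethanol over control livers (x axis) for each gene (y axis), with the 95% interval from limma as bars; black points are the P450, Por and Alas1 genes and grey points their relatives Cyp3a57 and Cyp3a59. The intervals of the black points all include 0, from the narrow one of Cyp3a41a (-0.44 to 0.27) to the wide one of Alas1 (-0.80 to 1.39).

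Cyp3a11, the drug- and steroid-oxidising P450 taken as the main CYP3A of the adult male, had log2 signals of 4.98, 4.89, 4.60, 4.44 and 5.02 in control and 4.37, 5.19, 4.91, 4.32 and 4.88 in ethanol livers. High and low livers occurred in both groups, with ethanol mice 1 and 4 the lowest and ethanol mouse 2 the highest. Ethanol against control gave a log2 fold change of -0.05 ± 0.19 (SE, adjusted p = 0.929), a ratio of 0.967 with a 95% interval of 0.727 to 1.29.

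The probes of Cyp3a16 and Cyp3a41a, the genes known from female or young livers, were well above background on all 10 arrays of these adult males. Cyp3a16 had 4.87, 4.98, 4.53, 4.29 and 4.81 in control and 4.36, 4.88, 4.64, 4.32 and 4.84 in ethanol livers. Cyp3a41a had 7.57, 7.91, 7.32, 7.18 and 7.58 in control and 7.19, 7.63, 7.42, 7.16 and 7.74 in ethanol livers. In both genes control mouse 4 and ethanol mice 1 and 4 were the 3 lowest livers, as they were for Cyp3a11. Their log2 fold changes were -0.09 ± 0.16 for Cyp3a16 (SE, adjusted p = 0.826) and -0.08 ± 0.16 for Cyp3a41a (SE, adjusted p = 0.837), with intervals of the ratio of 0.734 to 1.20 and 0.738 to 1.21. The probe of Cyp3a44, another gene of this kind, was well above background on 0 of 10 arrays, with a processed signal between 1.91 and 7.03 units, so it has no fold change here.

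These genes are close copies, and a probe of one may bind the transcript of another. RefSeq places Cyp3a16, Cyp3a41a, Cyp3a44 and Cyp3a11 in this order in 1 cluster of Cyp3a genes on chromosome 5, with Cyp3a41b, a further copy for which no probe was named here, between Cyp3a16 and Cyp3a41a. The letters of the probes were not used here, so how much of the Cyp3a16 and Cyp3a41a signal comes from Cyp3a11 or another relative was not tested. Their promoters were compared instead, which shows how close the copies are in these windows but not how alike their transcripts are. The windows below run from 250 bases before to 50 bases after the start in RefSeq's GRCm38.p6, each read 5′ to 3′ on the gene's strand. They are shown because signals of 3 of these 4 genes moved together from mouse to mouse while the probe of the fourth stayed at background. Capitals mark the letters AGGTCA or their reverse complement TGACCT, a half-site of nuclear receptors such as PXR and CAR.
Cyp3a11: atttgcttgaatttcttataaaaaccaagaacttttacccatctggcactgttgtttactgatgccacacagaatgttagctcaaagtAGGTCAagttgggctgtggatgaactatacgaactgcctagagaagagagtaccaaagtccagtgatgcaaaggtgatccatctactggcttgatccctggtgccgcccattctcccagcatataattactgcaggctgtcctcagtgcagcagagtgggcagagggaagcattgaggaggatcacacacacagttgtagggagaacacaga
Cyp3a16: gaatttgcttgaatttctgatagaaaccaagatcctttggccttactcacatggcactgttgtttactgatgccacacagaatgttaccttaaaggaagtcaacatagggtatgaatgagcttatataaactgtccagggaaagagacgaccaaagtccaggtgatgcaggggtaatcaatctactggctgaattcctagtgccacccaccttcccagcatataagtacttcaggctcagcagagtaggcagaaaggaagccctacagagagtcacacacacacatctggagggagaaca
Cyp3a41a: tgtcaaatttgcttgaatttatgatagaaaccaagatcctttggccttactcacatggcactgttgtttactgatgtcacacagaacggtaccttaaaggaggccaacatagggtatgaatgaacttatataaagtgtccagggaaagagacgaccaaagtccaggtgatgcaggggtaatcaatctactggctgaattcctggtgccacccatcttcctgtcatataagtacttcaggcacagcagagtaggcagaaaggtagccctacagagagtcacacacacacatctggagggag
Cyp3a44: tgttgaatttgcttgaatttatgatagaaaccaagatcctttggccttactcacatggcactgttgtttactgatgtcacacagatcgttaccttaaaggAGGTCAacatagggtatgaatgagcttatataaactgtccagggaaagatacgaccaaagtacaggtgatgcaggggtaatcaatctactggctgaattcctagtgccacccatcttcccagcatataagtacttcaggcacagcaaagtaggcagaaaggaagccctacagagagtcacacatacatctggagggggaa
The windows are Cyp3a11 at chr5:145879805-145880104, Cyp3a16 at chr5:145469674-145469973, Cyp3a41a at chr5:145720087-145720386 and Cyp3a44 at chr5:145805825-145806124, all on the minus strand. Cyp3a44 shared 95.9% of aligned bases with Cyp3a16 and 94.3% with Cyp3a41a, and Cyp3a16 shared 94.6% with Cyp3a41a. Cyp3a11 was more distant, at 82.9% with Cyp3a16, 81.5% with Cyp3a41a and 79.9% with Cyp3a44. The half-site, searched on both strands, occurred once in the Cyp3a11 window (starting at -162 from the start site) and once in that of Cyp3a44 (-150), and in 16.3% of the 32851 windows of the RefSeq table. The Cyp3a16 and Cyp3a41a windows do not hold these letters.

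Cyp3a25 and Cyp3a13 are Cyp3a genes outside this group of close copies, Cyp3a25 in the same cluster and Cyp3a13 elsewhere on the chromosome. Cyp3a25 had 5.12, 5.22, 5.26, 5.27 and 5.48 in control livers, a tight group, and 4.53, 5.38, 5.12, 5.17 and 4.58 in ethanol livers. Ethanol mice 1 and 5 lay below every control and the other 3 ethanol mice within the controls' range. Its log2 fold change was -0.32 ± 0.17 (SE, adjusted p = 0.424), a ratio of 0.803 with a 95% interval of 0.621 to 1.04. Cyp3a13 had 3.02, 3.13, 3.48, 3.39 and 3.52 in control and 2.97, 3.83, 3.25, 3.52 and 2.71 in ethanol livers, so the ethanol mice spread on both sides of the controls. Its log2 fold change was -0.05 ± 0.20 (SE, adjusted p = 0.925).

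Of the Cyp3a genes outside the set, Cyp3a57 and Cyp3a59 were measured on all 10 arrays and neither passed. Cyp3a57 had 4.14, 4.34, 4.30, 4.36 and 4.49 in control and 3.74, 4.46, 4.15, 4.31 and 3.70 in ethanol livers, and ethanol mice 1 and 5 were again the lowest. Its log2 fold change was -0.25 ± 0.15 (SE, adjusted p = 0.474), and that of Cyp3a59 was -0.22 ± 0.13 (SE, adjusted p = 0.462). The Cyp3a25 promoter window is close to those of both, with 90.9% of aligned bases shared with Cyp3a57 and 96.3% with Cyp3a59, and it holds 2 half-sites in opposite orientation, at -176 and -155. It is shown with its half-sites in capitals for comparison with the windows above.
Cyp3a25: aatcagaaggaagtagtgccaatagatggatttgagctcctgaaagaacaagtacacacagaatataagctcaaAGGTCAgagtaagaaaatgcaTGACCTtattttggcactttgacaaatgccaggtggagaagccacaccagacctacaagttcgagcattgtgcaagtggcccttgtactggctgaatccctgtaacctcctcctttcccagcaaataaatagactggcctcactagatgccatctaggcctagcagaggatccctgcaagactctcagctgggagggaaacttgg
This window lies at chr5:146009569-146009868 on the minus strand, and each half-site recurs in the same orientation in the windows of Cyp3a57 and Cyp3a59. It shared 77.2% of aligned bases with the window of Cyp3a11.

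**Figure D2:**
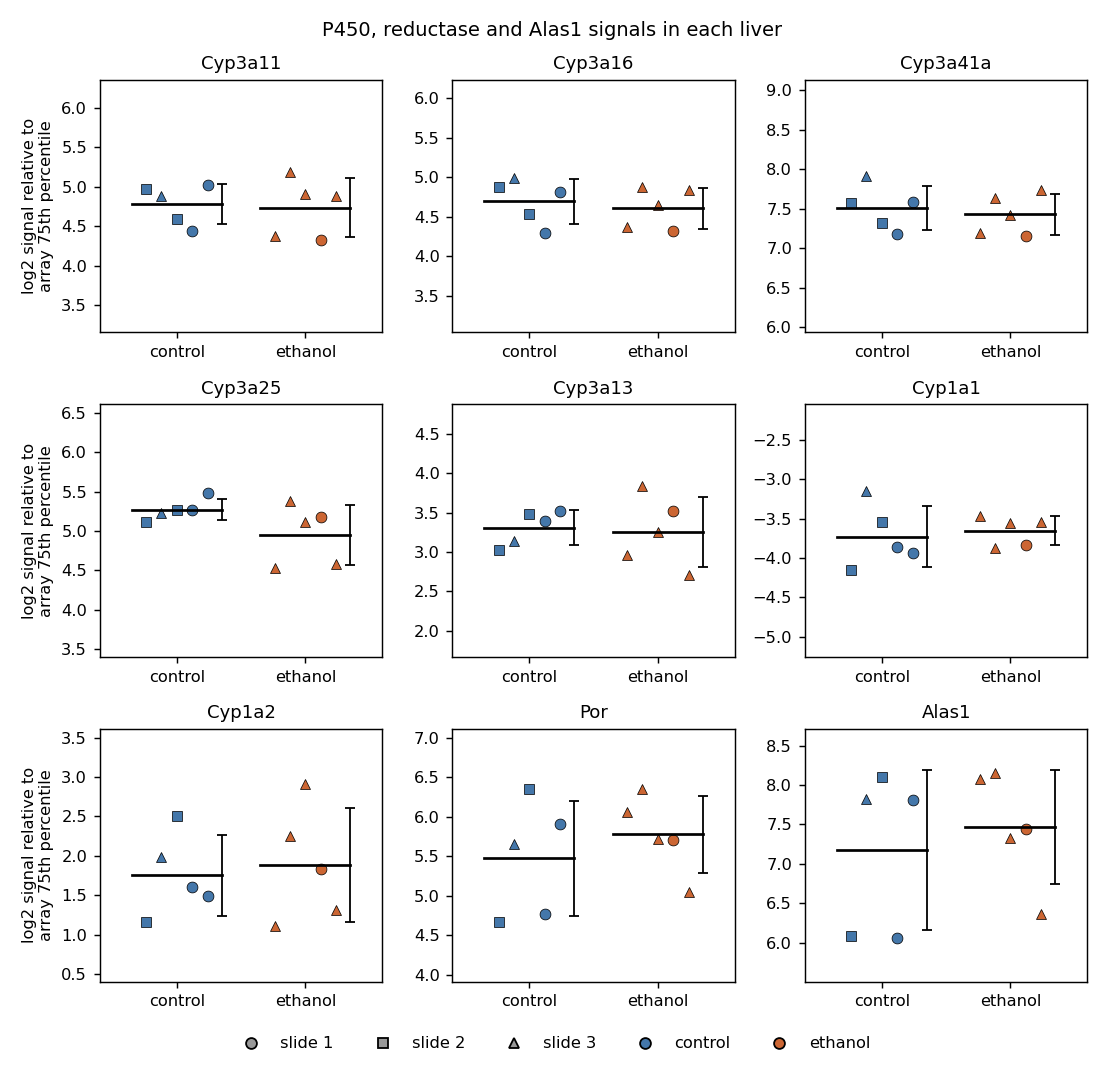
Log2 signal scaled to the 75th percentile of its array (y axis) in each of the 10 livers for the 9 tested genes, by group (x axis); blue marks control, orange ethanol, the marker's shape the slide, the bar the group mean and the whisker 1 SD either side (n = 5), and all panels span the same width in log2 units. The groups overlap in every panel, the spread is narrowest for Cyp3a25 in control livers (5.12 to 5.48), and Alas1 spans 6.07 to 8.15.

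Among the CYP1A genes, the inducible Cyp1a1 was dim but well above background on all 10 arrays. Its log2 signals were -4.15, -3.15, -3.54, -3.87 and -3.93 in control and -3.46, -3.87, -3.56, -3.84 and -3.54 in ethanol livers, and the 5 ethanol mice lay inside the controls' range. The log2 fold change was 0.08 ± 0.18 (SE, adjusted p = 0.876), and it was of the other sign with the slide as a fixed block (-0.22) and within slide 3 (-0.46), where control mouse 2, the highest control, is the 1 control against 4 ethanol mice. Cyp1a2, the constitutive liver form that oxidises caffeine and aromatic amines, had 1.17, 1.99, 2.51, 1.61 and 1.49 in control and 1.11, 2.25, 2.91, 1.83 and 1.32 in ethanol livers. It varied more from mouse to mouse than 94.6% of all genes by its SD within groups, over a 3.48-fold range, and the groups overlapped almost wholly. In both groups the mice ranked in the same order by replicate number, 1, 5, 4, 2 and 3 from the lowest, and the cause was not tested. For Cyp1a2 the between-group results were as follows. Its log2 fold change was 0.13 ± 0.35 (SE, adjusted p = 0.894), a ratio of 1.09 with an interval of 0.634 to 1.89, and it was -0.54 when the position of the array along its slide (its column) entered the fit.

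Cyp1b1, the relative of the CYP1A genes that is mostly expressed outside hepatocytes, was dim, well above background on 4 of 5 control and 2 of 5 ethanol arrays. It was kept for the fit through the control group alone, so its levels are given with no test. Its log2 signals were -3.76, -4.26, -4.54, -3.61 and -3.46 in control and -4.33, -6.39, -4.74, -4.98 and -4.20 in ethanol livers, where -6.39 is the floor set under dim signals. Ethanol mouse 2 was the lowest, and the groups overlapped between -4.54 and -4.20.

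Por and Alas1, like Cyp1a2, differed widely between mice of the same group. Por had 4.67, 5.66, 6.35, 4.77 and 5.91 in control and 6.06, 6.35, 5.72, 5.70 and 5.05 in ethanol livers, a 3.20-fold range. Control mice 1 and 4 and ethanol mouse 5 were the lowest, and control mouse 3 and ethanol mouse 2 the highest. Its SD within groups was above that of 94.4% of all genes. Between groups the log2 fold change was 0.31 ± 0.35 (SE, adjusted p = 0.714), a ratio of 1.24 with a 95% interval of 0.722 to 2.12.

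Alas1 had 6.08, 7.83, 8.10, 6.07 and 7.81 in control and 8.08, 8.15, 7.33, 7.44 and 6.36 in ethanol livers, a 4.24-fold range. The same control mice 1 and 4 and ethanol mouse 5 were the lowest, set 0.97 below the next liver. Its SD within groups was above that of 98.2% of all genes. Ethanol over control came to a log2 fold change of 0.29 ± 0.49 (SE, adjusted p = 0.813), a ratio of 1.23 with a 95% interval of 0.575 to 2.61, and it was -0.35 within slide 3, which holds 1 control mouse against 4 ethanol mice. Its 2 other probes gave the same picture, with log2 fold changes of 0.27 ± 0.55 and 0.37 ± 0.55 (SE), ranges of 5.08-fold and 5.74-fold, and Pearson's r between probes of 0.985 to 0.997 over the 10 mice.

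Across mice Por and Alas1 moved almost in lockstep, also once the group means were taken out. Over the 10 livers Pearson's r was 0.97 (permutation p = 3e-05, adjusted over 8 pairs 0.00024) and Spearman's rho 0.903 (permutation p = 0.0009, adjusted 0.0072). For deviations from the group means r was 0.97 (exact permutation p = 0.000556, adjusted 0.00444), and for deviations from the slide means it was 0.97 (exact permutation p = 0.00208, adjusted 0.0167). Without control mice 1 and 4, the 2 farthest from the median of Por, r was 0.925 (exact permutation p = 0.00126, adjusted 0.0101), and rho was 0.833 (exact permutation p = 0.0154, adjusted 0.123). Since 3 livers lay apart in Alas1, the 7 others were also taken alone, a step chosen after the values were seen. Among them r was 0.82 (exact permutation p = 0.0323) and rho 0.75 (exact permutation p = 0.0663), so in this smaller set the rank correlation missed 0.05. All tests were two-sided.

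**Figure D3:**
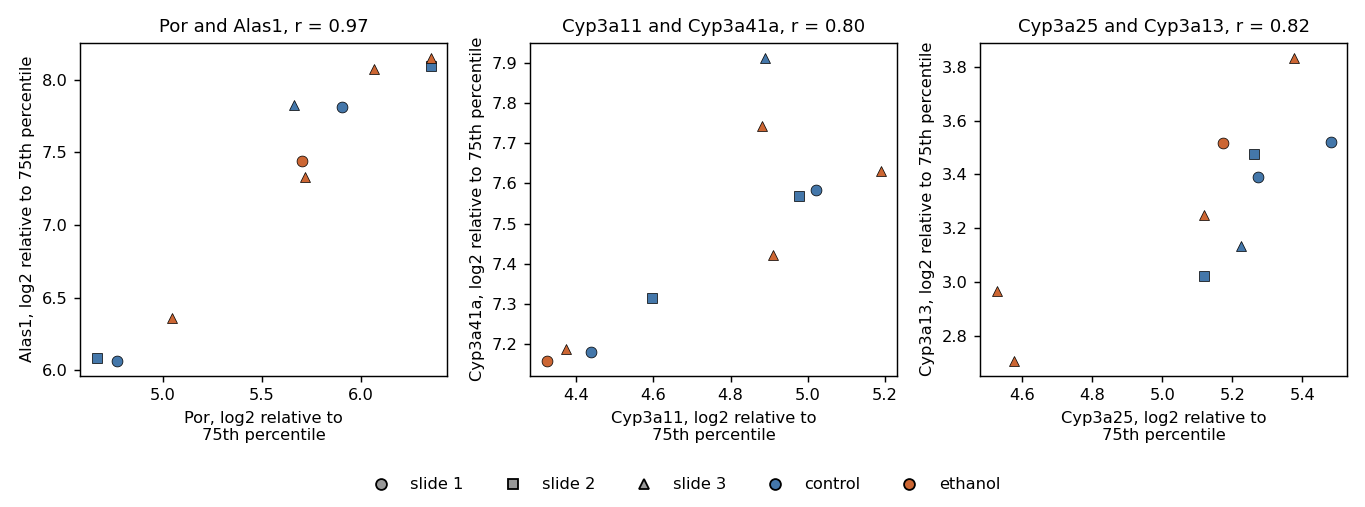
Log2 signals, scaled to the 75th percentile of each array, of pairs of genes in each liver, with Por against Alas1 (left), Cyp3a11 against Cyp3a41a (middle) and Cyp3a25 against Cyp3a13 (right); each point is 1 mouse, blue for control and orange for ethanol, with the marker's shape giving the slide. Pearson's r over the 10 mice is 0.97, 0.80 and 0.82, and control mice 1 and 4 and ethanol mouse 5 form the low end of the left panel.

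Of the P450s that Por and Alas1 serve, Cyp3a11 and Cyp1a2 were the ones tested against them, and no such relation passed. None of the other 7 pairs tested passed after adjustment over the 8 pairs. Por had an r of 0.05 with Cyp3a11 (permutation p = 0.892, adjusted 0.902) and 0.49 with Cyp1a2 (permutation p = 0.147, adjusted 0.588). Alas1 had 0.04 with Cyp3a11 (permutation p = 0.902, adjusted 0.902) and 0.41 with Cyp1a2 (permutation p = 0.242, adjusted 0.646). For these pairs rho lay between 0.152 and 0.406, with adjusted permutation p of 0.65 to 0.782. With 1 mouse left out r with Cyp1a2 ran from 0.37 to 0.68 for Por, highest without ethanol mouse 1 (exact permutation p = 0.0453, adjusted 0.181), and from 0.26 to 0.62 for Alas1. Cyp3a13 was not among the tested pairs. As a description with no test, its r over the 10 mice was 0.54 with Por and 0.47 with Alas1. For deviations from the slide means these were 0.71 and 0.64. Without ethanol mice 2 and 5, the 2 farthest from the median of Cyp3a13, they were 0.26 and 0.13. Cyp1a1 and Cyp1a2 had an r of 0.28 (permutation p = 0.427, adjusted 0.683) and a rho of 0.0909 (adjusted 0.81). Without the 2 mice farthest from the median of the first gene, r of the 7 pairs lay between -0.0538 and 0.336. With 10 mice these values leave room for moderate relations.

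The genes most like Por, by Pearson's r of deviations from group means over the 10 mice, were Alas1 (0.972), Sh2b3 (0.970) and Arhgef26 (0.970), and for Alas1 they were Por (0.972), Mcrip2 (0.963) and Psmb10 (0.948). An r of 0.9 or more was reached by 40 genes with Por and by 27 with Alas1. For Cyp1a2 the 3 nearest were Olfr114 (0.997), Gm36177 (0.979) and Car9 (0.972), and 148 genes reached 0.9. Cyp3a11 had only 3 such genes, Cyp3a16 (0.910), Ehbp1 (0.910) and Cyp3a59 (0.907). These values describe the same 10 libraries and carry no test.

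Many but not all genes of the circadian clock varied strongly among the same livers, and they were looked at after the values above were seen. Their SD within groups was 0.23 for Nr1d1, 0.28 for Nr1d2 and 0.31 for Hlf at the low end. It was 0.55 for Tef, 0.68 for Dbp and 1.23 for Arntl, and largest for Ciart (1.86). Tef and Dbp encode clock-controlled PAR bZip factors, which are known to regulate Alas1 and Por. Tef had log2 signals of 4.95, 5.74, 6.18, 4.90 and 5.92 in control and 6.05, 6.30, 5.00, 5.96 and 5.47 in ethanol livers. Control mice 1 and 4 and ethanol mouse 3, whose Alas1 signal was 7.33, were the lowest in Tef, and ethanol mouse 5 came next. Arntl, a core activator of the clock, had -1.41, -3.43, -4.07, -1.20 and -3.09 in control and -4.33, -3.47, -1.27, -3.04 and -2.04 in ethanol livers. It was highest in control mice 1 and 4 and ethanol mouse 3, followed by ethanol mouse 5. Dbp ran from 4.62 to 6.18 in control and from 4.71 to 6.38 in ethanol livers. No clock gene checked passed between groups, with adjusted p of 0.839 for Dbp, 0.780 for Tef and 0.925 for Arntl in limma. The part of the clock in the Por and Alas1 values was not tested.

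The promoter windows of Por and Alas1 are shown because these genes moved together. Capitals mark GCGTG or its reverse complement CACGC, the core of the sites bound by the aryl hydrocarbon receptor.
Por: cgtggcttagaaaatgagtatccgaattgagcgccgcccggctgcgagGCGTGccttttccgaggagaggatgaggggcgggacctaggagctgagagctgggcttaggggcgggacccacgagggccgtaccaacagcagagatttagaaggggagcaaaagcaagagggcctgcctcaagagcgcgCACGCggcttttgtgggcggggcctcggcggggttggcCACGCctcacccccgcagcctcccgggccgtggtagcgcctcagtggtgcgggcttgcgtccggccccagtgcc
Alas1: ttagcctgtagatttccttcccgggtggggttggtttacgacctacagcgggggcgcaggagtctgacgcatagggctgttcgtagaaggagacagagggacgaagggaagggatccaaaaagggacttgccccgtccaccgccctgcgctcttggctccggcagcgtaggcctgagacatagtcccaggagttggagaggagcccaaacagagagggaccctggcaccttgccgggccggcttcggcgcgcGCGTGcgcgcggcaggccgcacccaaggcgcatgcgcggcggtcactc
The window of Por lies at chr5:135688895-135689194 on the plus strand and that of Alas1, for the first of 2 starts in the RefSeq table, at chr9:106247905-106248204 on the minus strand. RefSeq's span of Por begins upstream, at 135670040, so this window belongs to a start inside the gene. The same holds for Cyp1a1, whose span begins at 57687928 and whose window begins at 57697363. Other starts of these genes were not searched. Por holds the core 3 times, Alas1 once and Cyp1a1 once, and Cyp1a2 does not hold it, while 32.4% of the 32851 windows do. None of the members' windows holds the E-box CACGTG (7.15% of windows do), nor TTATGTAA (0.938%) or TTACGTAA (0.119%), 2 forms of the PAR bZip site. Both strands were searched, and no match says only that these letters are not in these windows.

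The Cyp3a genes fell into 2 sets by how they varied from mouse to mouse, which is given as a description with no test. Cyp3a11, Cyp3a16 and Cyp3a41a went together, with r over the 10 mice of 0.91 for Cyp3a11 and Cyp3a16, 0.80 for Cyp3a11 and Cyp3a41a and 0.96 for Cyp3a16 and Cyp3a41a. Cyp3a25, Cyp3a57 and Cyp3a13 went together as well, with 0.99 for Cyp3a25 and Cyp3a57, 0.82 for Cyp3a25 and Cyp3a13 and 0.86 for Cyp3a57 and Cyp3a13. Between the sets r ran from -0.23 for Cyp3a41a and Cyp3a13 to 0.33 for Cyp3a11 and Cyp3a25, with 0.09 for Cyp3a41a and Cyp3a25. For deviations from the slide means these pairs had, in this order, -0.04, 0.65 and 0.44. Cyp3a59 had an r of 0.82 with Cyp3a11, 0.78 with Cyp3a16 and 0.71 with Cyp3a41a, against 0.73 with Cyp3a25, 0.66 with Cyp3a57 and 0.37 with Cyp3a13. For deviations from the slide means Cyp3a59 had 0.91 with Cyp3a11 and 0.81 with Cyp3a25. Its r with Cyp3a11 was 0.69 without the 2 mice farthest from the median of Cyp3a11. With Cyp3a25 it was 0.32 without the 2 farthest from the median of Cyp3a59. These 2 values leave out different mice and cannot be set against each other.

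Of the pairs across the sets, 2 were among the 8 tested and neither passed. Cyp3a11 and Cyp3a25 had an r of 0.33 (permutation p = 0.351, adjusted 0.683) and a rho of 0.418 (adjusted 0.65). For deviations from the slide means r was 0.65 (exact permutation p = 0.0312, adjusted 0.125), so the gap between the sets was smaller within slides. Cyp3a11 and Cyp3a13 had an r of 0.11 (permutation p = 0.755, adjusted 0.902) and a rho of 0.297 (adjusted 0.65), and within slides r was 0.33. Without the 2 mice farthest from the median of the first gene, r was 0.84 for Cyp3a11 and Cyp3a16, 0.66 for Cyp3a11 and Cyp3a41a, 0.93 for Cyp3a25 and Cyp3a57 and 0.67 for Cyp3a25 and Cyp3a13. Close copies can share signal through probes that bind more than 1 transcript, so shared transcription and shared binding cannot be told apart here.

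**Figure D4:**
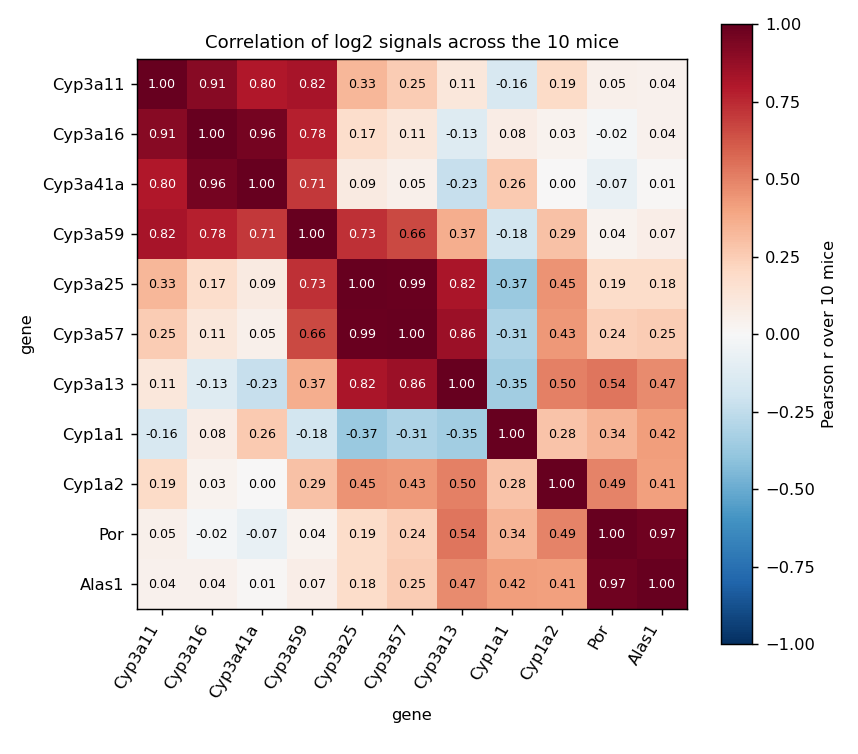
Pearson's r over the 10 mice between the log2 signals of each pair of genes (both axes list the same 11 genes), with red for positive and blue for negative values and r printed in each square. Blocks of high r join Cyp3a11, Cyp3a16 and Cyp3a41a (0.80 to 0.96), Cyp3a25, Cyp3a57 and Cyp3a13 (0.82 to 0.99) and Por with Alas1 (0.97).

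Receptors and partner factors that drive these P450s were measured for all 18 genes listed, 10 higher and 8 lower with ethanol. The median log2 fold change was 0.04 and 0 passed the threshold, with 2 at an unadjusted p under 0.05 in limma. Over all genes 56.4% were higher and 13.3% had an unadjusted p under 0.05. Nr1i2, which encodes PXR, had 2.53, 2.72, 3.00, 2.45 and 3.02 in control and 3.35, 3.26, 3.06, 2.93 and 2.91 in ethanol livers. The ethanol values lay in the upper part of the range, with overlap, and the log2 fold change was 0.36 ± 0.14 (SE, adjusted p = 0.327). Cebpa, a hepatocyte transcription factor, had 0.28 ± 0.08 (SE, adjusted p = 0.245). Nr1i3, encoding CAR, had 0.09 ± 0.19 and Ahr -0.12 ± 0.17 (log2 fold change and SE). Hnf4a, a master factor of hepatocytes, had 0.02 ± 0.16 and Nr0b2, the repressor SHP, -0.30 ± 0.32 (log2 fold change and SE). Without ethanol mouse 1, the lowest in Nr0b2, that gene was at -0.0103.

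Other targets of the same receptors were split between higher and lower. Among genes known to be induced through PXR or CAR, 16 of 18 were tested, 8 higher and 8 lower, with 0 past the threshold and a median of -0.02. Those with the smallest p were both lower, Gsta2, a glutathione transferase, by a log2 fold change of -0.75 ± 0.30 (SE, adjusted p = 0.335) and Slco1a4, an organic anion transporter, by -0.85 ± 0.36 (SE, adjusted p = 0.356). Slco1a4 was at -0.49 without ethanol mouse 3, its lowest liver. Among targets of the aryl hydrocarbon receptor, 10 of 12 were tested, 4 higher and 6 lower, with 0 past the threshold and a median of -0.03. These counts and this median include Cyp1b1, which was kept through the control group alone, so its part in them says nothing about ethanol. Among the others the smallest p was that of Ugt1a6b, a glucuronosyltransferase, at a log2 fold change of 0.15 ± 0.07 (SE, adjusted p = 0.388).

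Beside Por, 7 other electron carriers of the endoplasmic reticulum were tested, 5 higher and 2 lower, with 0 past the threshold, 0 at an unadjusted p under 0.05 in limma and a median of 0.03. For Cyb5a, cytochrome b5, which can also pass electrons to P450s, the log2 fold change was 0.00142 ± 0.11 (SE), and for its reductase Cyb5r3 it was 0.03 ± 0.20 (SE). The related reductases Cyb5r4 and Cyb5r1 had the smallest p, at 0.15 ± 0.07 (SE, adjusted p = 0.408) and 0.27 ± 0.15 (SE, adjusted p = 0.432). Of 10 other microsomal enzymes that take electrons from Por, 9 were higher and 1 lower, where 56.4% of all genes were higher. Their median was 0.40 and 0 passed the threshold. An unadjusted p under 0.05 in limma was reached by 2, where 13.3% of all genes reached it. These were Cyp4a10, a fatty acid hydroxylase, and Cyp8b1, a sterol hydroxylase of bile acid synthesis. Sqle (0.03 ± 1.45), Cyp51 (0.46 ± 0.72), Cyp7b1 (0.35 ± 0.49), Dhcr7 (0.33 ± 0.46) and Cyp39a1 (0.10 ± 0.14) were higher by less than their SE. Cyp7a1 (0.80 ± 0.53) and Cyp2c29 (0.55 ± 0.38) were higher by more than their SE. Cyp4a10 had 4.05, 3.87, 4.45, 3.83 and 4.34 in control and 5.11, 5.52, 4.72, 4.88 and 4.48 in ethanol livers, with no overlap, and a log2 fold change of 0.83 ± 0.20 (SE, adjusted p = 0.184). Cyp8b1 had 2.57, 1.93, 2.21, 2.68 and 1.91 in control and 2.70, 3.49, 2.83, 3.36 and 3.08 in ethanol livers, also with no overlap, and likewise 0.83 ± 0.20 (SE, adjusted p = 0.184). These were the 2 of the 10 enzymes without overlap, where 3.05% of all genes had none.

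Haem synthesis beyond Alas1 was measured for all 13 genes listed, 10 higher and 3 lower with ethanol, where 56.4% of all genes were higher. The median log2 fold change was 0.12 and 0 passed the threshold. An unadjusted p under 0.05 in limma was reached by 3 of the 13, where 13.3% of all genes reached it. Uros, uroporphyrinogen III synthase, had 2.55, 2.72, 2.69, 2.63 and 2.64 in control and 2.82, 2.96, 2.87, 2.91 and 2.73 in ethanol livers. Ppox, protoporphyrinogen oxidase, had 0.46, 0.25, 0.33, 0.44 and 0.48 in control and 0.59, 0.64, 0.55, 0.50 and 0.68 in ethanol livers. In both every ethanol mouse lay above every control mouse, by small steps, and in Uros the groups all but met (control mouse 2 at 2.723, ethanol mouse 5 at 2.726). These were the 2 of the 13 genes without overlap, where 3.05% of all genes had none. Their log2 fold changes were 0.21 ± 0.07 (SE, adjusted p = 0.289) and 0.20 ± 0.07 (SE, adjusted p = 0.315). Alad and Fech, early and last enzymes of the same pathway, had -0.07 ± 0.12 and -0.01 ± 0.09 (log2 fold change and SE).

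On the side of haem breakdown, binding and transport, 9 genes were tested, 3 higher and 6 lower with ethanol. Their median was -0.09 and 0 passed the threshold, while 56.4% of all genes were higher. An unadjusted p under 0.05 in limma was reached by 2 of the 9, where 13.3% of all genes reached it. Flvcr2, a membrane transporter linked to haem and choline, had 0.37, 0.50, -0.01, 0.20 and 0.35 in control and -0.26, -0.04, -0.83, -0.45 and -0.87 in ethanol livers. The groups did not overlap but nearly met, with control mouse 3 the lowest control (-0.0076) and ethanol mouse 2 the highest ethanol value (-0.042). The log2 fold change was -0.77 ± 0.17 (SE), with an unadjusted p of 0.000951 and an adjusted p of 0.172 in limma. Hmox2, the constitutive haem oxygenase, had 0.18 ± 0.06 (SE, adjusted p = 0.298) with no overlap, and Hmox1, the inducible one, had -0.26 ± 0.13 (SE, adjusted p = 0.406). Flvcr2 and Hmox2 were the 2 of the 9 genes without overlap, where 3.05% of all genes had none.

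**Figure D5:**
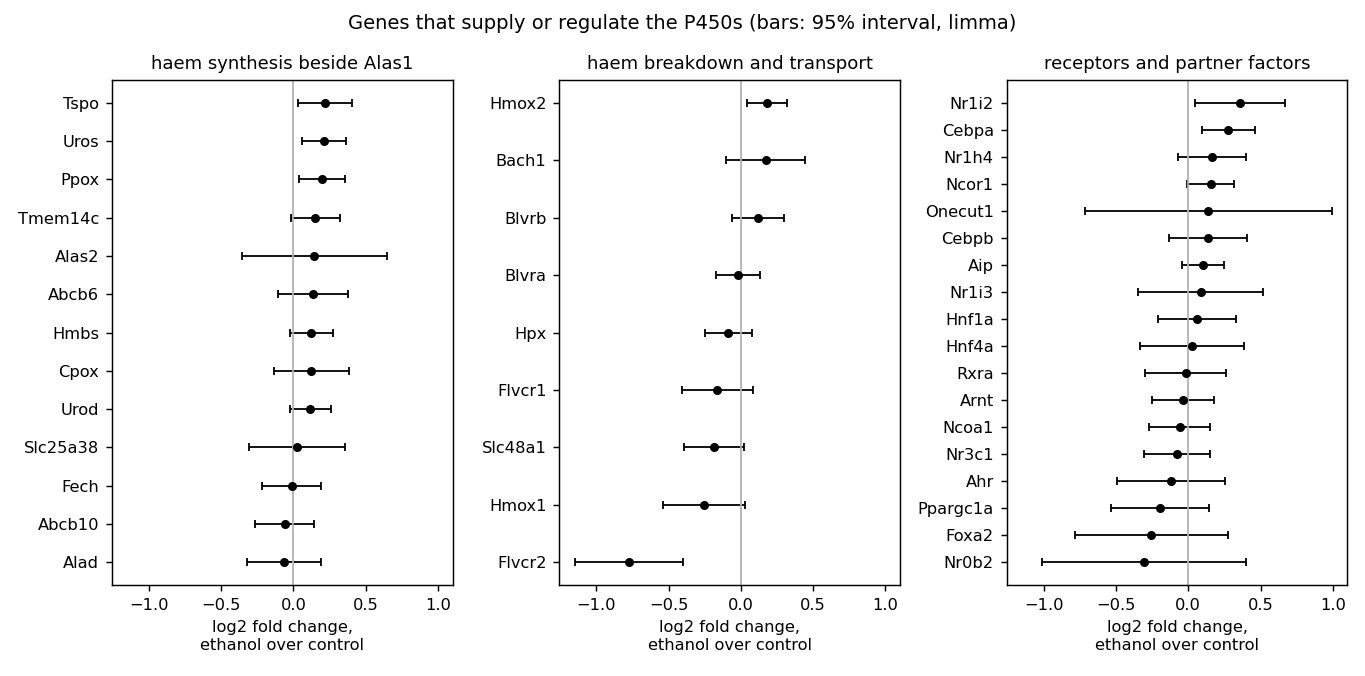
Log2 fold change of ethanol over control livers (x axis) with 95% intervals from limma for genes of haem synthesis beside Alas1 (left), of haem breakdown and transport (middle) and for receptors and partner factors (right), sorted by size. Among these Flvcr2 is the gene farthest below 0 (-0.77) and Nr1i2 the farthest above (0.36), and no gene shown passed the adjusted threshold.

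Because Cyp3a16, Cyp3a41a and Cyp3a44 are known as female-biased, other sex-biased liver genes were counted beside them. Of 12 female-biased genes 9 were tested, 8 higher and 1 lower with ethanol, with 0 past the threshold, 1 at an unadjusted p under 0.05 and a median of 0.45. That 1 gene is Sult3a1, a sulfotransferase well above background on 1 of 5 control and 4 of 5 ethanol arrays. It was kept for the fit through the ethanol group alone, so its part in these counts and this median says nothing about ethanol. Its log2 signals were -4.71, -3.95, -5.76, -5.62 and -5.85 in control and -0.96, -2.30, -6.39, -2.70 and -1.10 in ethanol livers, with ethanol mouse 3 at the floor, and no fold change is given. Cyp2b9, a P450 of female liver, had a log2 fold change of 0.68 ± 0.47 (SE, adjusted p = 0.520). Of 14 male-biased genes, 11 were higher and 3 lower, with 0 past the threshold, 0 at an unadjusted p under 0.05 in limma and a median of 0.31. Cyp4a12a and Cyp4a12b, male-biased fatty acid hydroxylases, had 0.60 ± 0.28 and 0.44 ± 0.26 (log2 fold change and SE). Both counts held more higher than lower genes, the first with Sult3a1 in it, and 56.4% of all genes were higher. An unadjusted p under 0.05 in limma was reached by 13.3% of all genes. Cyp3a16 and Cyp3a41a had log2 fold changes of -0.09 and -0.08.

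Markers of liver zones were counted because these P450s are known to be higher near the central vein. Of 15 genes of hepatocytes near the central vein 7 were higher and 8 lower with ethanol, with a median of -0.03. An unadjusted p under 0.05 in limma was reached by 3 of them, where 13.3% of all genes reached it. In 2 of the 15 the groups did not overlap, where 3.05% of all genes had no overlap. Of 11 genes of hepatocytes near the portal vein 2 were higher and 9 lower, with a median of -0.16 and 1 at an unadjusted p under 0.05. Over all genes 56.4% were higher. No gene of either list passed the adjusted threshold in limma.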

How the data were processed

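Liver RNA of 10 mice was hybridised to 1-colour Agilent arrays, 1 mouse to an array. The authors deposited 1 scanner table per array with spot intensities on a linear scale, made with Agilent Feature Extraction 10.7.3.1 on an array designed on mm9, per the file headers. Its processed intensity, which is background-subtracted, was used. The authors also deposited a table of log2 values, whose differences between arrays matched those of the scaled scanner values (r of 1.00 over 8046 bright genes), with column medians from -0.12 to 0.08. The value each probe was centred on stays unknown and cancels between groups. The sources used here do not say how the log2 table was made.

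Control and outlier spots were left out. Each array was scaled to its own 75th percentile of intensity (279.9 to 387.4 units), a floor of 4 units was set, and log2 was taken. Probes well above background on at least 4 of 5 arrays of a group were kept, 31110 of 56605, of which 31106 had all values. Names came from RefSeq accessions, for 32994 probes, and 23611 stayed unnamed here. A gene was its brightest kept probe. The fit used lmFit and eBayes of limma 3.58.1 (R 4.3.3) over all 15088 genes, with Benjamini-Hochberg adjustment and a threshold of 0.05. SE is the moderated standard error of limma. The fit was tested on simulated data with 5 arrays a group. Correlations over 10 mice used 100000 permutations, and smaller or stratified sets were enumerated in full.

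The members, the gene lists and the pairs were chosen with earlier results of these data known. Named beside the members are their relatives, the 2 genes with the smallest p in each list where none passed (lists of cell types and liver zones aside), and 10 regulators and haem genes. Alternatives were the scaling, background correction, floor, filter, probe rule, deposited values, slide, column on the slide, a replicate block, the variance model, array weights, and each array left out in turn. Normexp ran on median spot signals because the mean spot signal was not used here. The clock genes, the correlation above the gap in Alas1 and the promoter motifs were chosen after seeing the data. An item of the sex-biased lists is not reported here and was left out of their counts. The number of arrays limits the precision.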

Additional observations from a re-analysis of the deposited data

Results flagged for a closer look

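In 80 groups of 5 mice, for the members' probes and the other named genes, 3 held a value far from the other 4 (a gap above 0.71 of the group's range), and chance gives about 1 such group in 20. No member was among them. Slco1a4, the organic anion transporter, was at -2.19 in ethanol mouse 3, where the nearest ethanol mouse had -0.59, a gap of 0.791 of the range. Cyp2b9, a female-biased P450, was at 3.89 in ethanol mouse 3, where the nearest ethanol mouse had 5.74, a gap of 0.759 of the range. Ahr, the aryl hydrocarbon receptor, was at 2.65 in ethanol mouse 4, where the nearest ethanol mouse had 2.01, a gap of 0.904 of the range.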

How the results depend on the processing

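No member passed the threshold under any of the 26 alternatives, and the smallest adjusted p of a member was 0.239, for Cyp3a25, whose log2 fold change stayed between -0.45 and -0.20. Cyp3a16 (-0.33 to -0.0128) and Por (0.00254 to 0.53) also kept their sign. Other members changed sign under some settings, always without passing. Cyp3a11 was 0.0375 with normexp and 0.0200 with the slide as a random block, where Cyp3a41a was 0.00629. Cyp3a13 was 0.0584 with the slide as a fixed block, 0.0625 within slide 1 and 0.0550 within slide 3. Cyp1a1 was -0.0199 with quantile normalization, -0.22 with the slide as a fixed block, -0.46 within slide 3, -0.00457 without slide 2 and -0.16 with the array's column. Cyp1a2 was -0.0928 within slide 3 and -0.54 with the column, and Alas1 -0.35 and -0.13. The cause was not tested.

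Among all genes, 2 higher and 1 lower passed. The counts were 4 and 3 with normexp, 1 higher with probes well above background on all 10 arrays, 8 and 4 with the slide as a random block, 5 and 2 with trend and robust, and 9 and 6 with array weights. They were 0 and 0 with no filter, with the slide as a fixed block, within slide 1, within slide 3, without slide 2 and with the column. Slide 1 holds 1 ethanol mouse and slide 3 holds 1 control mouse, a lone sample taken to vary like the other group, so their counts say nothing about stability. With 1 array left out, 0 to 3 higher and 0 to 4 lower genes passed.

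Whether mice were paired by replicate number was not settled. Over all genes, correlations of deviations between same-numbered mice were 0.324, 0.148, 0.311, 0.0644 and -0.11. By these correlations 1 of 5 control mice matched its own number best. For Cyp1a2 alone, the mice of both groups ranked in the same order by number. With the replicate block 0 genes passed in either direction and 0 members did. The members' log2 fold changes stayed as they were (Cyp3a11 -0.05, Por 0.31), and the SE of Cyp1a2 was 0.11 in place of 0.35.

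With 1 array left out, log2 fold changes ran from -0.16 to 0.0547 for Cyp3a11, -0.42 to -0.21 for Cyp3a25, -0.20 to 0.0827 for Cyp3a13, -0.19 to -0.0166 for Cyp3a16, -0.17 to 0.0159 for Cyp3a41a, -0.0311 to 0.22 for Cyp1a1, -0.13 to 0.32 for Cyp1a2, 0.11 to 0.53 for Por and 0.0165 to 0.57 for Alas1. Of the other named genes, ranges that crossed 0 were -0.0695 to 0.25 for Nr1i3, -0.0646 to 0.17 for Hnf4a, -0.0503 to 0.0595 for Cyb5a, -0.10 to 0.17 for Cyb5r3, -0.11 to 0.00914 for Alad and -0.0562 to 0.0365 for Fech. Others were -0.35 to -0.16 for Cyp3a57, -0.30 to -0.13 for Cyp3a59, -0.99 to -0.49 for Slco1a4, -0.48 to -0.0103 for Nr0b2, -0.26 to -0.0272 for Ahr, 0.44 to 1.12 for Cyp2b9 and 0.28 to 0.61 for Cyp4a12b.

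Signs of other named genes changed with quantile normalization for Hnf4a (-0.0917), Cyb5a (-0.0429) and Cyb5r3 (-0.10), with normexp for Hnf4a (-0.00646), with the mean of probes for Cyb5r4 (-0.0177) and with the authors' deposited log2 values for Cyb5a (-0.0111). They changed with the slide as a fixed block for Ahr (0.0591), Hnf4a (-0.0196), Cyb5a (-0.0394) and Fech (0.0428), and within slide 1 for Cyp4a12a (-0.0390), Cyp4a12b (-0.11), Ahr (0.51), Alad (0.20) and Fech (0.0706). Within slide 3 they did for Cyp2b9 (-0.20), Nr1i3 (-0.0272), Hnf4a (-0.18), Cyb5a (-0.21), Cyb5r3 (-0.0392), Hmox1 (0.0419) and Fech (0.0197). They also did without slide 2 for Hnf4a (-0.00746), Cyb5a (-0.0182) and Cyb5r3 (-0.0279), with the column for Nr1i3 (-0.10), Hnf4a (-0.25) and Cyb5a (-0.16), and with array weights for Ahr (0.0269) and Alad (0.0359).

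Pearson's r of Por with Alas1 ran from 0.96 to 0.99 with 1 mouse left out and passed after adjustment each time. Without the 2 farthest mice r passed and rho did not (adjusted permutation p = 0.123). That of Por with Cyp3a11 was -0.0417 for slide deviations and -0.0136 without the 2 farthest mice (-0.21 to 0.23 with 1 left out), and that of Alas1 with Cyp3a11 was -0.0484 and -0.0538 in these (-0.19 to 0.22). Cyp3a11 with Cyp3a13 ran from -0.25 to 0.29 with 1 left out.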
